A study of Mus musculus with 2 samples.

Results

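Wls and Porcn are the 2 genes whose products a cell needs to send out Wnt proteins. They were taken by name from the 32285 genes of the count matrices, and their UMIs were read in every cell class that could be told apart. A UMI (unique molecular identifier) stands for 1 captured RNA molecule. Skin of the back and flank of mouse embryos at E14.5 was profiled by droplet-based 3' single-cell RNA sequencing, in 1 wildtype and 1 mutant library. The mutant library comes from K14Cre; Wntless fl/fl embryos. The Cre is driven by the keratin 14 promoter, which is active in basal keratinocytes, and the floxed gene is Wntless, the older name of Wls. The wildtype library comes from littermates, and the labels do not say which of these alleles they carry. Each library pooled 2 to 3 embryos of 1 genotype, so every value below is a single value for each genotype and no test between genotypes was possible. Intervals are 95% intervals for counting error only and say nothing of the spread between embryos.

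As background, Wnt proteins are lipid-modified signals that act over short distances. Porcn is the enzyme of the endoplasmic reticulum that attaches the fatty acid, and Wls is the membrane carrier that binds the acylated Wnt and brings it to the cell surface. After release of its cargo Wls is taken up again and returned to the Golgi by the retromer. In embryonic skin, Wnt proteins from the epidermis act on the epidermis itself and on the dermis beneath it, where they are needed for hair follicle placodes and for the dermal condensates under them. Wls has also been described as a target of Wnt signalling in other tissues.

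Wls (ENSMUSG00000028173) lies on the plus strand of GRCm38 chromosome 3 from 159839672 to 159938664, with 7 annotated transcripts. Porcn (ENSMUSG00000031169) lies on the minus strand of the X chromosome from 8193848 to 8206525, also with 7 transcripts. Neither gene overlaps another gene of the count matrices, although Ebp starts close beyond the 3' end of Porcn on the same strand. The labels do not say which exons of Wls the floxed allele removes, and the matrices do not say where in a transcript a UMI lies, so a Wls UMI in the mutant library is not by itself an intact transcript. The Wls promoter, from 250 bases before to 50 bases after the RefSeq start (GRCm38.p6, chr3:159839400-159839699, plus strand), is given because the dermal cells were also split by their Wnt target genes. Capitals mark the core letters CTTTG of TCF/LEF sites, the DNA sites of the Wnt pathway, or their reverse complement CAAAG.

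Wls promoter: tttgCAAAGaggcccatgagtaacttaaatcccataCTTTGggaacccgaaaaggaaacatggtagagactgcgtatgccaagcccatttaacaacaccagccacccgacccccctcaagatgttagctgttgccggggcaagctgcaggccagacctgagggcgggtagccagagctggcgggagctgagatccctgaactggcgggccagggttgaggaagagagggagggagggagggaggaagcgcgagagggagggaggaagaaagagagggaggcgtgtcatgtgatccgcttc

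The core letters occurred 2 times in this window, at -246 and -214 from the start. They are common, being found on either strand in 53.9% of 32851 promoters of the same length. The longer form CTTTGAT, found in 3.73% of those promoters, was not among these letters. These matches describe letters only.

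The wildtype library held 9065 barcodes and 112593376 UMIs, and the mutant library 10449 barcodes and 159841679 UMIs. The median barcode had 11341 and 14602 UMIs, so levels are given as CPM (UMIs of the gene per 1000000 UMIs of the class) and shares of cells after thinning to equal depth. The 2 libraries shared 19 barcode sequences. Dermal cells were the 5300 and 5028 barcodes on the authors' lists, wildtype first here and throughout. The other classes were clusters named from marker genes, without Wls or Porcn among the genes used to cluster. These were an epidermis-like cluster (Krt14, Krt5, Trp63), a muscle-like (Myod1, Myog, Pax7), mural-like (Rgs5, Kcnj8, Abcc9), Schwann-like (Sox10, Foxd3, Erbb3), melanoblast-like (Dct, Pmel, Mitf), endothelial-like (Pecam1, Cdh5, Kdr) and macrophage-like cluster (C1qa, Csf1r, Adgre1), called by their short names below. All of their own markers had UMIs in both libraries, except 1 of 10 melanoblast markers in the mutant library. Red blood cells (erythroid) and mast cells were kept as classes in which RNA set free by other cells can be looked for.

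In the wildtype library Wls was highest in the epidermis, at 131 CPM (123 to 139, from 1055 UMIs in 488 cells). The dermis followed at 91.8 CPM (89.5 to 94.2, from 5775 UMIs), 1.43-fold lower and without overlap of the intervals. Schwann cells, the glia of peripheral nerves, had 75.7 CPM, macrophages 73.2 CPM and melanoblasts, the precursors of pigment cells, 70.0 CPM. Each of these intervals overlapped that of its neighbour, so their order is not resolved. The melanoblast class held many haemoglobin-rich cells, and its 22 cells with at most 1% haemoglobin UMIs had 90.5 CPM (56.0 to 138). Mural cells, which wrap small vessels, had 49.97 CPM, muscle 40.4 CPM and endothelial cells 25.3 CPM, again with overlapping neighbours. Mast cells had 10.02 CPM and erythroid cells 0.598 CPM (3 UMIs in 638 cells). The other 8 classes all stood above the erythroid level by intervals that did not overlap it. Haemoglobin made up 92.5% and 93.5% of erythroid UMIs, which lowers the CPM of all other RNA there. The erythroid level is therefore no measure of free RNA in the other classes.

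**Figure D1:**
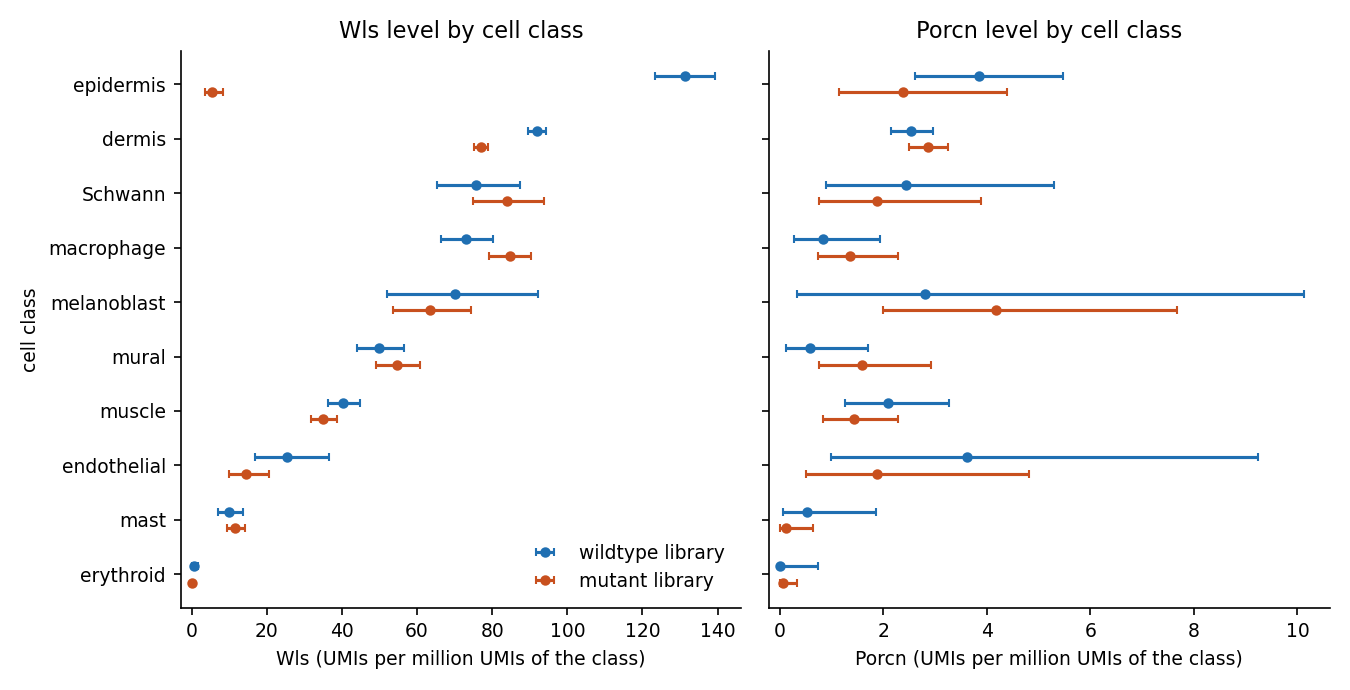
Wls (left) and Porcn (right) in CPM by cell class, with points for the wildtype and mutant libraries and bars for exact 95% Poisson intervals (counting error only). Wls in the epidermis stands at 131 CPM in the wildtype and 5.49 CPM in the mutant library, while in the other 7 classes above the mast cells the mutant level is within 1.73-fold of the wildtype level.

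The mutant library gave another order. Macrophages stood first at 84.6 CPM (79.1 to 90.5), followed by Schwann cells at 83.9 CPM and dermis at 77.0 CPM, each overlapping the next. Among cells with at most 1% haemoglobin UMIs, 33 melanoblasts had 122 CPM (93.3 to 156) and macrophages 95.2 CPM (88.2 to 102.5). The first place in this order is therefore not settled. The epidermis was next to last at 5.49 CPM (3.48 to 8.24), below mast cells at 11.7 CPM and above erythroid cells at 0.121 CPM.

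The epidermis was the class in which Wls differed most between the libraries. Its 488 wildtype cells held 1055 Wls UMIs and its 160 mutant cells 23, which is 23.9-fold lower per UMI (log2 ratio -4.58, -5.24 to -3.99). A ratio is called here at 1.5-fold or more, and 14.8% of the 11355 genes measured in the epidermis, those with 20 or more UMIs, were called lower and 7.71% higher. A lower log2 ratio than that of Wls was found for 0.247% of those genes. The direction is that of the genotype labels, in the class that expresses keratin 14.

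Single cells showed the same contrast. Of the 488 wildtype epidermal cells, 354 had a Wls UMI and 225 had at least 2, with up to 13 in 1 cell. Of the 160 mutant cells, 149 had none, 6 had 1 and 5 had 3 or 4. This is against depth, since the median mutant epidermal cell had 23654 UMIs and the median wildtype cell 15051. After thinning every cell to 5000 UMIs, Wls was seen in 191 of 473 wildtype cells (40.4%, exact Clopper-Pearson interval 35.9 to 45.0) and in 4 of 156 mutant cells (2.56%, 0.703 to 6.43).

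**Figure D2:**
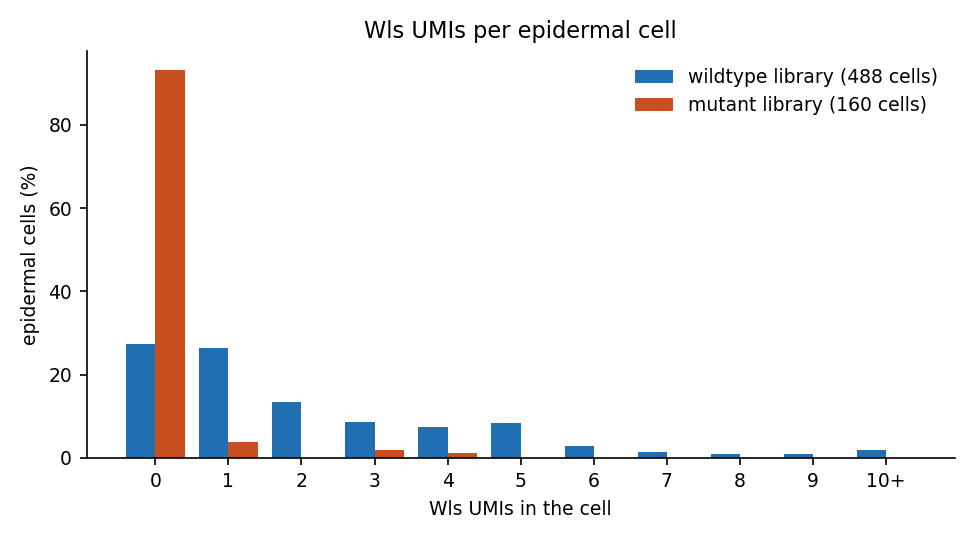
Percent of epidermal cells (vertical axis) with each number of Wls UMIs (horizontal axis), for 488 cells of the wildtype and 160 of the mutant library. In the mutant library 149 cells sit at 0 and none exceeds 4 UMIs, whereas 354 wildtype cells have at least 1.

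The 23 Wls UMIs of the mutant epidermis lay in 11 cells, most of which also carried dermal RNA. A share of collagen UMIs (Col1a1, Col1a2 and Col3a1) above 0.1% was found in 7 of these 11 cells, which held 16 of the 23 UMIs, but in 5 of the 149 mutant cells without Wls. Among wildtype epidermal cells 42 of 354 with Wls and 4 of 134 without were above it. The 0.1% limit was chosen after the values were seen. The 5 mutant cells with 3 or 4 Wls UMIs had a median of 0.704% collagen UMIs, 40138 UMIs and 719 CPM of Krt14, the keratin of basal cells. Mutant cells without Wls had 0.00615%, 23427 UMIs and 1311 CPM. Of the 11 cells, 8 held 20 of the 23 UMIs and were among the 8% of barcodes with the highest doublet scores in their library. So were 12 of the 149 mutant epidermal cells without Wls. With all such barcodes left out, the epidermis kept 910 wildtype and 3 mutant Wls UMIs, a log2 ratio of -7.30. Of the 8 cells with high doublet scores, 1 was below the collagen limit, with 4 Wls UMIs, 0.00997% collagen UMIs and a score of 0.0952. It was among the barcodes left out.

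Wls was set beside the dermal marker genes, each as percent of its level in the dermis. The markers include collagen genes. Their sum does not tell RNA from dermal cells apart from marker RNA that a class makes itself. In the mutant epidermis the 12 dermal markers together were at 6.48% of their dermal level and Wls was at 7.13% of its dermal level. In the wildtype epidermis the markers were at 9.41% and Wls at 143%. Erythroid cells had 0.645% and 0.490% for the markers and 0.651% and 0.158% for Wls. Every other class had a higher percent for Wls than for the markers in both libraries. Muscle had 44.0% and 45.6% for Wls against 8.74% and 7.28% for the markers. The markers were highest in mural cells and melanoblasts. Mural cells had 54.4% and 71.1% for Wls against 30.6% and 21.5%, and melanoblasts 76.2% and 82.3% against 18.1% and 35.1%. The part of dermal RNA in each Wls level was not tested beyond these values.

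**Figure D3:**
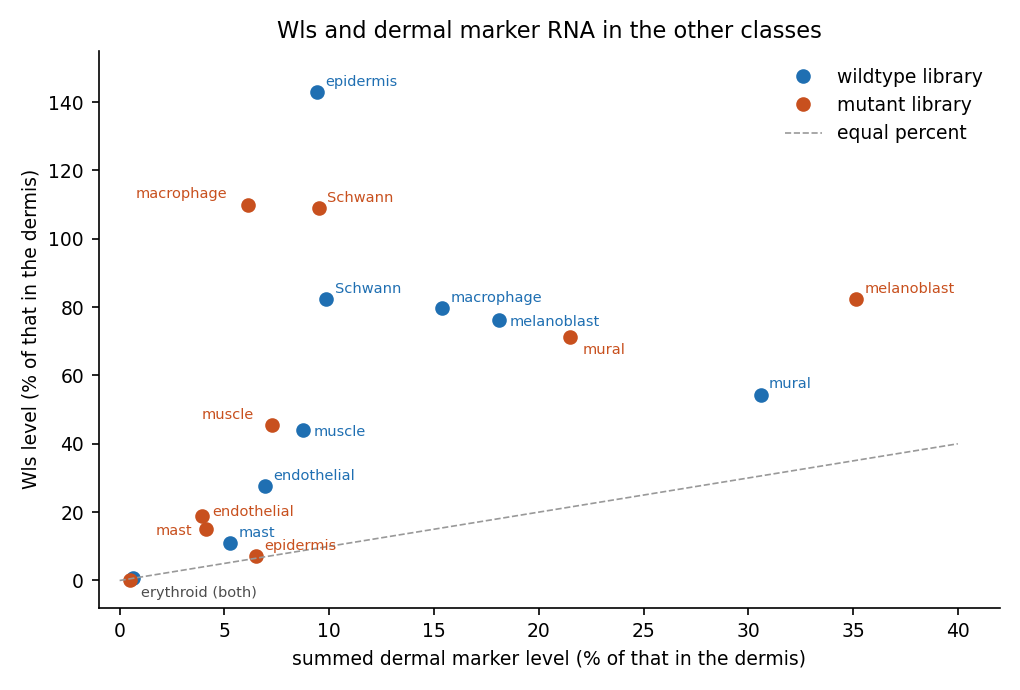
Wls level (vertical axis) against summed level of 12 dermal marker genes (horizontal axis), each as percent of its level in the dermis of the same library, for 9 cell classes in each library. The dashed line marks equal percents, and the mutant epidermis at 6.48% and 7.13% lies on it, whereas the wildtype epidermis lies at 143% for Wls.

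Within the wildtype epidermis Wls was not even. Basal cells, those with few markers of other layers, had 160.5 CPM (150 to 171, 308 cells). Placode cells, the epidermal buds of hair follicles, here cells with UMIs of at least 3 of 8 placode markers, had 70.7 CPM (60.0 to 82.7, 149 cells), 2.27-fold below basal cells (log2 ratio -1.18, -1.44 to -0.94). Suprabasal cells, the differentiating layer, had 45.5 CPM (25.5 to 75.1) from 15 UMIs in 16 cells. After thinning, Wls was seen in 49.7% of basal, 23.5% of placode and 18.8% of suprabasal cells. The CPM intervals of the placode and suprabasal cells lay below that of the basal cells, while the share of the 16 suprabasal cells (4.05 to 45.6%) overlapped the basal share (44.0 to 55.4%). The mutant library held no cell with 3 placode markers. Its 144 basal cells held all 23 Wls UMIs (5.86 CPM) and its 12 suprabasal cells none, where the Clopper-Pearson interval reaches 26.5% of cells with a UMI. Compared without placode cells, the epidermal log2 ratio was -4.81 (-5.47 to -4.21).

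In the dermis Wls was modestly lower in the mutant library. Its 5300 wildtype cells held 5775 UMIs (91.8 CPM) and its 5028 mutant cells 6248 UMIs (77.0 CPM, 75.1 to 78.9), 1.19-fold lower (log2 ratio -0.26, -0.31 to -0.20). The ratio was not called. In the dermis 5.64% of 15609 measured genes were called lower and 10.9% higher, and 15.5% of the genes had a lower ratio than Wls. Dermal cells with a Wls UMI made up 35.2% (33.9 to 36.5) and 31.4% (30.1 to 32.7) after thinning, which left out 157 and 83 shallower cells. Without thinning the shares were 58.0% and 63.9%, with median depths of 11154 and 15566 UMIs.

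Dermal cells were then split by Wnt activity, as the number of 8 Wnt target genes (Lef1, Axin2, Dkk1, Notum, Nkd1, Nkd2, Tcf7 and Sp5) with a UMI after thinning. In the wildtype library Wls was at 86.2 CPM in cells with no target, 94.0 CPM with 1, 97.6 CPM with 2 and 92 CPM with 3 or more. In the mutant library it was at 77.7, 76.6, 75.0 and 76.9 CPM. Wls thus varied little with Wnt activity. Cells with 3 or more targets over cells with none gave a log2 ratio of 0.09 (-0.02 to 0.21) in the wildtype and of -0.02 (-0.24 to 0.20) in the mutant library. Wildtype cells with 2 targets stood above those with none by intervals that did not overlap (92.2 to 103 and 82.3 to 90.4). With cells thinned to 9000 UMIs the wildtype cells with 3 or more targets did so too, at 97.8 CPM (93.4 to 102.4) against 87.5 CPM (82.1 to 93.2). The targets themselves were far apart, since 18.1% of wildtype and 2.71% of mutant dermal cells had 3 or more. Within each of the 4 bins Wls was lower in the mutant library, with log2 ratios from -0.15 to -0.38. Giving both libraries the wildtype mix of bins left a ratio of -0.26, and the mutant mix -0.22.

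Dermal condensate cells, the clumps under the placodes, held less Wls than the rest of the dermis. Defined by UMIs of at least 3 of 8 condensate genes such as Sox2, Foxd1 and Sox18, they numbered 233 in the wildtype library and 0 in the mutant library. They had 62.4 CPM of Wls (52.9 to 73.1) against 93.0 CPM in all other wildtype dermal cells (log2 ratio -0.58, -0.82 to -0.35). With both sides held to cells with 3 or more Wnt targets, 78 condensate cells had 63.0 CPM and 853 other dermal cells 94.3 CPM (-0.58, -1.01 to -0.18). Both parts of the early hair follicle, placode above and condensate below, therefore held less Wls than basal cells and other dermal cells in this 1 library. Without condensate cells the ratio between the libraries was -0.27.

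The dermal difference was also uneven over clusters of the listed cells. Cluster 0 (Igfbp5, Rspo1) had a log2 ratio of -0.40, cluster 1, led by histone genes of DNA replication, -0.34, and cluster 7, led by the mitosis genes Pttg1 and Cenpa, -0.48. Cluster 2 (Aspn, Angptl1) had -0.01 (-0.15 to 0.13) and cluster 4 (Mfap5, Clec3b) 0.04 (-0.10 to 0.20). The small cluster 15, led by the same Mfap5 with Klf4, had 88.7 and 119 CPM (0.43, 0.02 to 0.85). Cluster 5 (Foxd1, Sox18) held 1442 wildtype and 5 mutant cells and gives no comparison. Cluster 9, of low depth, held 46 listed cells of each library with 6 and 1 Wls UMIs. With the 6 compared clusters (100 or more listed cells, 20 or more of each library) weighted alike, a setting added after the values were seen, the dermal ratio was -0.11, and with cluster 9 among them -0.15. In both libraries the histone-gene cluster 1 had more Wls than all other listed cells, by log2 0.39 (0.31 to 0.46) and 0.22 (0.13 to 0.31).

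**Figure D4:**
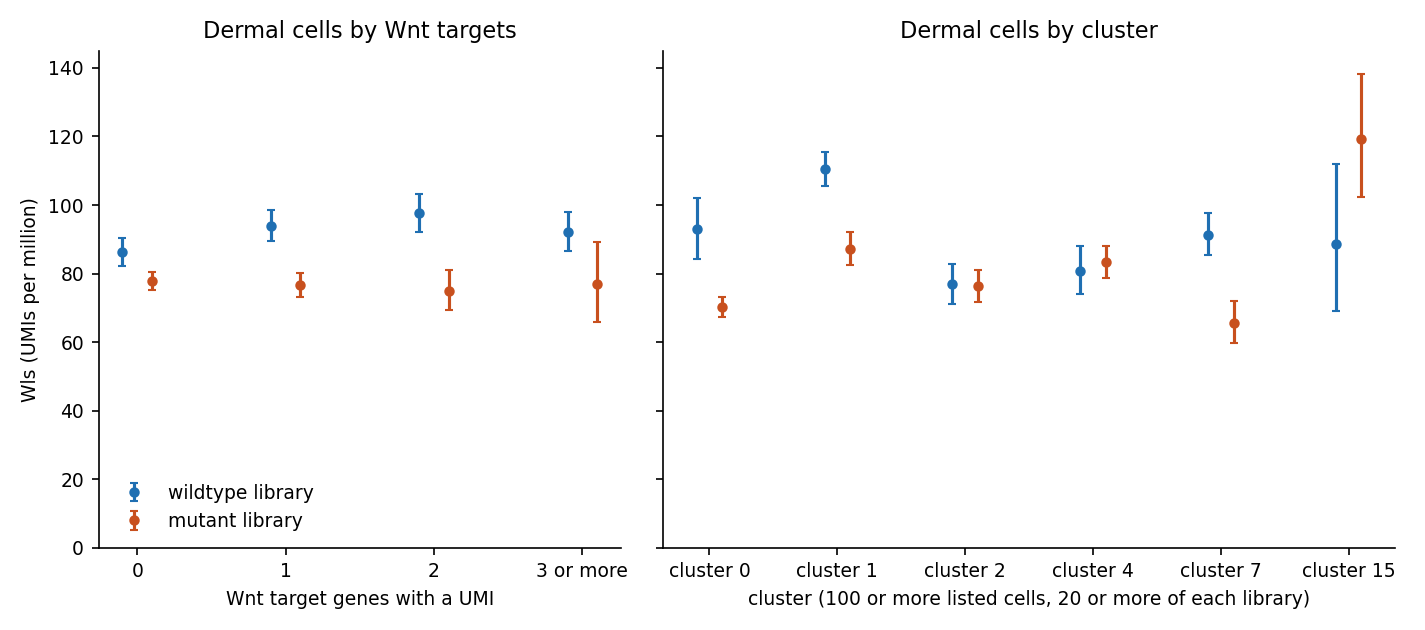
Wls in CPM (vertical axis) in dermal cells of the wildtype and mutant libraries, by the number of Wnt target genes with a UMI (left) and by cluster (right), with exact 95% Poisson intervals (counting error only). Wls stays between 75.0 and 97.6 CPM over the Wnt bins, and the libraries overlap in clusters 2 and 4 but not in 0, 1 and 7.

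Macrophages had 443 and 872 Wls UMIs, 73.2 and 84.6 CPM (log2 ratio 0.21, 0.04 to 0.38). Here 11.4% of 12032 genes were called lower and 4.71% higher, and Wls was not called. Haemoglobin made up 6.0% and 9.86% of macrophage UMIs, and in the macrophages with at most 1% of it Wls was at 80.3 and 95.2 CPM (0.25, 0.06 to 0.43). Schwann cells had 187 and 312 UMIs, 75.7 and 83.9 CPM (0.15, -0.12 to 0.42), in a class with 4.82% of genes called lower and 7.19% higher. Mural cells had 256 and 346 UMIs, 49.97 and 54.7 CPM (0.13, -0.11 to 0.37), where 4.01% and 7.31% were called. Muscle had 368 and 419 UMIs, 40.4 and 35.1 CPM (-0.21, -0.41 to 0.0006), where 5.63% and 4.28% were called. None of these 4 classes had Wls past 1.5-fold.

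Endothelial cells were the other class in which Wls was called. Their 64 wildtype cells held 28 UMIs and their 97 mutant cells 31, which is 25.3 (16.8 to 36.5) and 14.6 CPM (9.92 to 20.7), 1.73-fold lower (log2 ratio -0.79, -1.58 to -0.0013). In this class 5.98% of 8920 genes were called lower and 11% higher, and the Poisson intervals of the 2 levels overlapped. Markers of other cells stood higher in the wildtype endothelial cells, at 287 and 63.1 CPM for the 14 macrophage markers and 83.1 and 16.5 CPM for the 14 epidermal markers, and their part in the Wls difference was not tested. Among endothelial cells with at most 1% haemoglobin UMIs the ratio was -1.01 (-1.85 to -0.15). Dermal markers were at 1185 and 903 CPM in all endothelial cells, but at 282 and 914 CPM in these haemoglobin-poor ones, higher in the mutant library.

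Melanoblasts had 50 and 152 Wls UMIs, 70.0 and 63.4 CPM (-0.14, -0.61 to 0.35). This cluster was mixed, with haemoglobin at 29.7% and 33.5% of its UMIs and over 1% in 24 of 46 and 73 of 106 cells. In those haemoglobin-rich mutant cells the melanoblast markers summed to 482 CPM and the dermal markers to 10258 CPM. The 22 and 33 cells with at most 1% haemoglobin had 90.5 and 122 CPM of Wls (0.43, -0.31 to 1.22), so the sign of the ratio depends on these cells. The class also had many called genes, 17.8% lower and 13.7% higher of 8270.

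**Figure D5:**
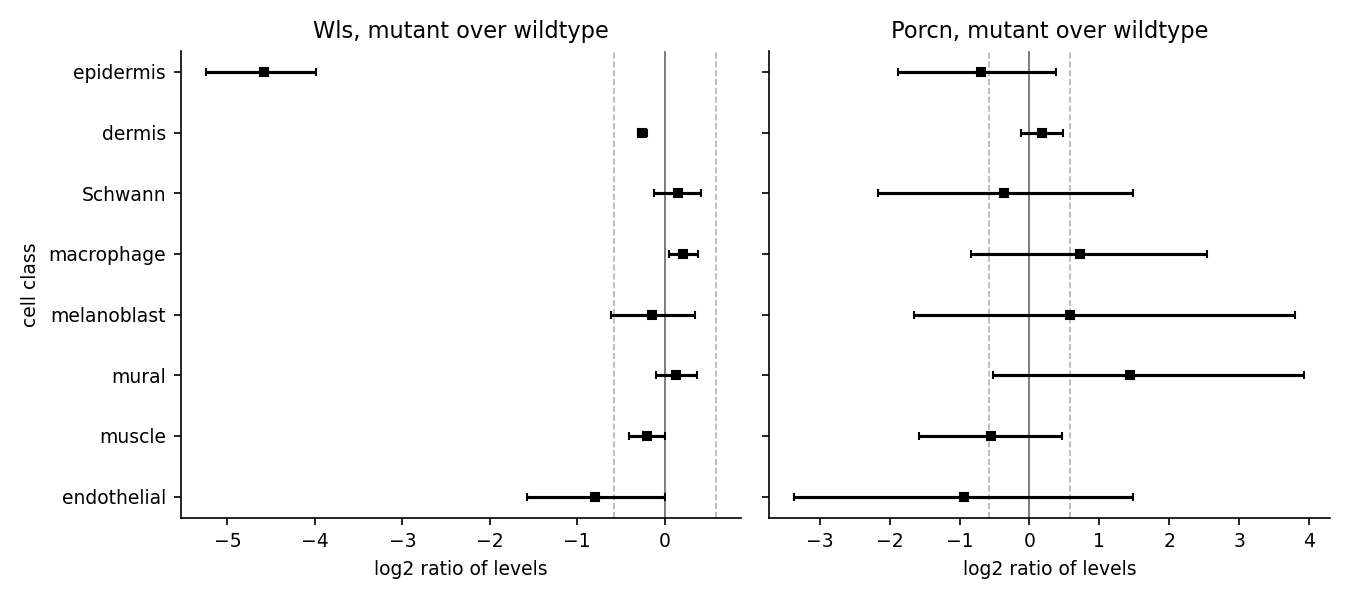
Log2 ratio of mutant over wildtype level (horizontal axis) of Wls (left) and Porcn (right) by cell class, with exact conditional 95% intervals for counting error and dashed lines at 1.5-fold. Wls in the epidermis lies at -4.58 with all other Wls ratios between -0.79 and 0.21, and every Porcn interval includes 0.

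Porcn gave few UMIs in any class, and no difference between the libraries was detectable at this depth. The dermis held 159 and 232 Porcn UMIs, 2.53 (2.15 to 2.95) and 2.86 CPM (2.50 to 3.25), a log2 ratio of 0.18 (-0.12 to 0.48). The epidermis held 31 and 10 UMIs, 3.86 (2.62 to 5.47) and 2.39 CPM (1.14 to 4.39), a ratio of -0.69 (-1.89 to 0.37). This is past 1.5-fold, yet the interval runs from a much lower to a higher level. Muscle held 19 and 17 UMIs, 2.09 and 1.42 CPM (-0.55, -1.59 to 0.47). The other 5 classes had 2 to 14 Porcn UMIs in a library, and all of their intervals included 0. In the wildtype library the intervals of all neighbours in the order of Porcn levels overlapped, from the epidermis first to mast cells with 2 UMIs, and erythroid cells had 0 UMIs in 638 cells. As Porcn is X-linked, RNA of the sex chromosomes was also counted. Xist, the RNA of the inactive X of females, had 1.21 and 0.194 CPM (136 and 31 UMIs). The Y-linked Ddx3y had 58.9 and 56.2 CPM, so both libraries had far less Xist than Ddx3y. The part of sex in the Porcn levels was not tested.

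Within the dermis Porcn and Wls had opposite patterns over one cluster. The histone-gene cluster 1 had less Porcn than all other listed cells in both libraries, by log2 -1.01 (-1.68 to -0.40) in the wildtype and -1.35 (-2.14 to -0.66) in the mutant library, with 26 and 18 UMIs. Wls was higher there. In wildtype dermal cells with 3 or more Wnt targets Porcn was at 1.62 CPM, against 2.83 CPM in cells with none (-0.80, -1.65 to -0.02). The mutant library had 2.67 and 2.88 CPM for the same cells (-0.11, -1.58 to 1.05). Condensate cells had 6 Porcn UMIs and 2.43 CPM, close to the 2.52 CPM of other wildtype dermal cells. These contrasts within a library were chosen after their values were seen.

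In the wildtype library Wnt ligand RNA, like Wls RNA, was highest in the epidermis and the dermis. The 19 Wnt ligand genes summed to 651 and 956 CPM in the epidermis, led by Wnt6 and Wnt4 at 260 and 162 CPM in the wildtype library. In the mutant epidermis, where Wls was at 5.49 CPM, Wnt4 had 368 CPM and Wnt6 315 CPM. The wildtype epidermis included 149 placode cells and the mutant epidermis 0, and ligands were not compared without placode cells. The dermis had 395 and 407 CPM of ligands, led by Wnt5a and Wnt4 at 177 and 131 CPM in the wildtype library. Schwann cells had 179 and 102 CPM, mostly Wnt4 at 156 and 73.7 CPM. Mural cells had 108 and 80.7 CPM, melanoblasts 92.4 and 144 CPM, muscle 39.9 and 36.7 CPM and endothelial cells 35.2 and 26.4 CPM. Each was led by Wnt5a and Wnt4 in the wildtype library, the leading ligands of the dermis. Dermal markers stood at 30.6% and 21.5% of their dermal level in mural cells and 18.1% and 35.1% in melanoblasts. In muscle they stood at 8.74% and 7.28%, and in endothelial cells at 6.95% and 3.91%. The part of dermal RNA in these ligand sums was not tested. Macrophages had 80.6 and 26.6 CPM of ligands, while their epidermal markers were at 144 and 16.6 CPM and their dermal markers at 2625 and 1419 CPM, whose part in the ligand sums was not tested.

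After thinning to 5000 UMIs, 439 of 473 wildtype epidermal cells had a ligand UMI, and 180 of these (41.0%, 36.4 to 45.8) also had a Wls UMI. In the mutant library 152 of 156 epidermal cells had a ligand UMI and 4 of these (2.63%, 0.722 to 6.60) had Wls. Ligand RNA was thus present in mutant epidermal cells in which Wls RNA was rarely seen. In the dermis 35.9% of 4221 wildtype and 31.6% of 4113 mutant ligand cells had Wls, against 32.0% and 30.3% of the cells without a ligand. Among ligand cells Schwann cells had 29.9% and 29.3%, mural cells 26.5% and 19.6%, and muscle 22.7% and 17.6%, from 51 to 107 cells each. These counts give no firm order: cells without a ligand had 27.6% and 34.6% in Schwann cells, 15.6% and 21.0% in mural cells and 18.3% and 12.3% in muscle, and at 9000 UMIs the mural ligand cells had 30.8% and 39.1%. Taking all cells of a class, Wls was seen in 30.1% and 35.6% of macrophages, 28.7% and 32.7% of Schwann cells, 25.0% and 23.3% of melanoblasts, 18.9% and 20.6% of mural cells, 18.9% and 12.9% of muscle cells and 12.5% and 5.21% of endothelial cells. Erythroid cells had 1 of 512 (0.195%) and 0 of 1294, which allows up to 0.232% (3 counts of the total), at median depths of 8040 and 12101 UMIs. Most UMIs of erythroid cells were haemoglobin, which lowers these shares. Mast cells had 2.61% and 7.05%. Thinning left out 126 and 104 erythroid cells and 0 to 20 cells of each other class outside the dermis. Without thinning Wls was seen in 64.5% and 81.1% of macrophages, 46.4% and 69.0% of Schwann cells, 54.3% and 69.8% of melanoblasts, 59.6% and 70.0% of mural cells, 44.9% and 46.2% of muscle cells, and 26.6% and 18.6% of endothelial cells, the mutant cells being deeper in every class. Porcn was seen in 1.46% and 1.60% of dermal cells and 2.11% and 1.28% of epidermal cells, and both genes together in 27 of 5143 and 28 of 4945 dermal cells. At Porcn levels of 2 to 4 CPM, thinned cells mostly miss it, so these shares do not count the cells that make Porcn.

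The other genes of Wnt production and removal were counted beside all measured genes. Of a list of 30 such genes without Wls and Porcn, all 30 were measured in the dermis, of which 2 were called lower and none higher, with a median log2 ratio of -0.01 against 0.03 over all genes. With 5.64% of all dermal genes called lower, 2 of 30 is near the background. The 2 were Notum, a secreted enzyme that removes the fatty acid of Wnt and itself a Wnt target (9.43 and 1.85 CPM, -2.35), and Trabd2b, a metalloprotease that cuts Wnt (12.4 and 6.37 CPM, -0.97). The other named dermal members stayed within 1.5-fold: the desaturase Scd1, whose product is the fatty acid for Wnt (-0.30), the lipid phosphatase Mtm1 (0.29) and Sel1l of protein quality control (0.24). None of the 12 recycling genes, which include the retromer, and none of the 14 export genes was called in the dermis.

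In the epidermis 28 of the 30 were measured, 4 called lower and none higher, with a median of -0.13 against -0.10 over all genes. With 14.8% of all epidermal genes called lower, 4 of 28 is no more than the background. They were Tmem132a, a membrane protein reported to bind Wls (30.1 and 12.2 CPM, -1.31, -1.77 to -0.87), Sel1l (27.6 and 16.5 CPM, -0.75), Mtmr2, a lipid phosphatase of endosomes (20.0 and 12.4 CPM, -0.69), and Scd1. Scd1 had 35 and 0 UMIs, at least 6.08-fold lower when the 0 is set to 3 UMIs over the class, and is named although it had too few UMIs for the naming rule. The SNARE Ykt6 (-0.49) and the Golgi GTPase Rab6a (-0.47) were the next largest and stayed within 1.5-fold. Among measured members with UMIs in both libraries Wls had the lowest ratio, -4.58.

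The genes whose levels over the 10 classes of the wildtype library were most like those of Wls were 1110032A03Rik (Pearson r 0.965 on log2(CPM + 5)), Arhgef11 (0.962), Tmtc3 (0.960), Zfp157 (0.948) and Aldh2 (0.947), out of 10638 genes. For Porcn they were Ptpn14 (0.937), Cuedc1 (0.935), Grasp (0.922), Zfp579 (0.903) and Tanc1 (0.890). Wls and Porcn had an r of 0.651 with each other. All of these genes were near 0 in erythroid cells, a point that the 10 classes share and that raises r for many genes, so the values are a description of 10 points of 1 library.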

How the data were processed

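The deposited matrices hold raw UMI counts per gene and barcode, and per the file headers the authors made them by Cell Ranger 6.1.2. The submitters' processing notes name build mm10 and Seurat. The deposited barcode, gene and dermal-list files hold other information, names only, and how the dermal cells were chosen is not given in the sources used here. Tissue was dissociated with trypsin and cells were sorted after DAPI staining, per the labels' protocols.

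All barcodes were clustered together in scanpy 1.11.5 (10000 counts per cell, log, 2000 variable genes without Wls and Porcn, 30 components, 15 neighbours, leidenalg 0.10.2 at resolution 0.5, 21 clusters). A cluster was named by at least 3 markers among its 50 top genes. Dermis is the authors' lists, and listed cells were taken out of the other classes. UMIs were summed per class and library and divided by the class total (CPM), with exact Poisson intervals. Ratios are mutant over wildtype on the log2 scale, with exact conditional binomial intervals, and shares have Clopper-Pearson intervals. A gene was measured where the libraries together gave 20 UMIs, and called at 1.5-fold or more. No p-value was computed. Basal epidermal cells are those left after the placode cells and the cells with UMIs of at least 3 of 8 suprabasal markers.

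Doublets were not removed. Scrublet called 244 wildtype barcodes (2.69%) and 1 mutant barcode (0.00957%), so its calls did not work in the mutant library and its scores were used in an alternative. Dermal counts were also simulated, with 15463 genes measured and 200 of them changed by known folds. Intervals covered the known ratio for 91.4 to 97.7% of the genes checked per fold size, the changed genes and a part of the unchanged ones. The counts were drawn with Poisson error alone, as the intervals assume. This checks the computation and says nothing of the spread between cells or embryos. Sequences come from RefSeq, in which 1 of the 2 members matched the promoter table, and gene models from GENCODE M21.

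Members, lists and definitions were chosen with earlier results of these data known. Named genes were Wls and Porcn, up to 6 production genes of at least 50 UMIs with the highest absolute ratio in dermis and epidermis, the 2 leading ligands of each class, and the 5 genes most like each member (at least 100 UMIs and 10 CPM in a class). The contrasts within a library, the collagen limit, the haemoglobin split, the percent-of-dermis comparison and the promoter letters were chosen after values were seen.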

Additional observations from a re-analysis of the deposited data

How the results depend on the processing

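No ratio called at 1.5-fold changed sign under any alternative that gave a value. For Wls, the epidermis ran from -7.30 to -4.30 over 13 alternatives, the endothelial cells from -1.36 to -0.78 over 12 and the dermis from -0.37 to -0.11 over 15. Values outside the counting interval of the reported ratio were, for Wls in the epidermis, -7.30 (-9.58 to -5.75, from 910 and 3 UMIs) without the 8% of barcodes with the highest doublet scores and -5.69 when cells were classed one by one from their markers. In the melanoblasts this per-cell rule gave 0.35 and the limit of 1% haemoglobin 0.43, both above the reported -0.14. Muscle thinned to 5000 UMIs gave -0.53. The dermis gave -0.37 when taken as the dermal-fibroblast-like cluster in place of the lists, and -0.11 for Wls and -0.26 for Porcn with shared clusters weighted alike (-0.15 and -0.53 with the low-depth cluster 9 among them). The cause was not tested for any of these. Settings added after the data were seen were the shared barcodes, the weighting, the 1% haemoglobin limit and clusters mostly on the lists. Another scaling moved all ratios of a class by over 0.1 in the epidermis (0.10) and melanoblasts (0.13 and 0.11), too little to alter a call of Wls. With 50 UMIs as the minimum, the percent of genes past 1.5-fold went from 9.90 to 5.88 in muscle, 11.3 to 7.04 in mural, 12.01 to 7.09 in Schwann and 17.0 to 10.3 in endothelial cells. Allowing Wls and Porcn among the clustering genes left the clusters as they were, since neither was variable enough to enter. The limit of 20 cells of each library per cluster was run for the dermis alone. No paired analysis was possible because each genotype has 1 library. Depth limits Porcn, which had 20 or more UMIs over both libraries in 3 of the 8 classes.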

Other observations

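Barcodes off the dermal lists and in no named class also held Wls. In cluster 15, led by Mfap5, Klf4 and Ccn3, 98 wildtype and 91 mutant cells off the lists had 74.6 CPM (62.0 to 89.1) and 99.1 CPM (86.9 to 112.6) of Wls, a log2 ratio of 0.41 (0.09 to 0.74). Listed cells of that cluster had 0.43, but they come from the same 2 libraries and are no independent repeat. Off-list cells of the histone-gene cluster 1 had 92.6 and 88.3 CPM (-0.07, -0.32 to 0.18), where listed cells had 110.4 and 87.1 CPM. Cluster 6, with a median of 888 and 788 UMIs per barcode, had 6 and 16 Wls UMIs, and its barcodes had a median of 72.8% mitochondrial UMIs.

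Mast cells had 39 and 101 Wls UMIs, 10.02 and 11.7 CPM (0.22, -0.33 to 0.79), with dermal markers at 5.29% and 4.11% and Wls at 10.9% and 15.2% of the dermal level.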
